A study of Mus musculus with 18 samples.

Results

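The genes described here are 6 caspases, Casp1, Casp2, Casp4, Casp6, Casp8 and Casp9, and Apaf1, the scaffold on which caspase-9 is activated. They were chosen by name and are 7 of the 50600 genes in a table of RNA-seq read counts from FACS-purified Foxp3+ Tregs, with 1 library per mouse and 18 mice in all. All mice were on the C57BL/6 strain. Thymic Tregs came from 5 CD25 KO mice and 5 WT mice at 3 to 4 weeks of age. The thymic CD25 KO mice carried floxed Il2ra alleles and a Cre with YFP expressed from the Foxp3 locus, and as neonates they were given WT splenocytes to prevent autoimmunity. The thymic WT mice were Foxp3/RFP reporter mice, which carry no Cre and a different reporter allele of Foxp3. Splenic Tregs came from 4 CD25 KO mice, in which a tamoxifen-dependent Cre with eGFP is expressed from the Foxp3 locus together with floxed Il2ra and a YFP reporter at Rosa26, and from 4 WT reporter mice. Both splenic groups received tamoxifen at 7 to 10 weeks of age and were harvested 10 to 14 days later. The library names carry a date, and what it marks is not stated. Tissue, mouse model, age and this library date changed together. Differences between thymus and spleen, in level or in the change with genotype, therefore cannot be told apart from these. In the thymus, CD25 loss came together with Cre, another reporter allele of Foxp3 and the splenocyte transfer, and cannot be told apart from them. The comparison in each tissue asks how the caspase genes respond when Tregs lose CD25, the alpha chain of the IL-2 receptor.

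Caspases are proteases that cut after aspartate and are made as inactive precursors. Initiator caspases are activated on large scaffolds: caspase-8 at death receptors through Fadd, caspase-9 on Apaf1 when cytochrome c leaves mitochondria, and caspase-2 on the PIDDosome. Caspase-6 is cut by other caspases and cleaves lamins, whereas caspase-1 and mouse caspase-4, also called caspase-11, are inflammatory caspases that cut gasdermin D. IL-2 signalling is known to support the survival of T cells, so this protein family is of interest in Tregs that lack the high-affinity IL-2 receptor. RNA levels do not measure the proteases or their activity.

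The 6 caspase genes share a short active-site stretch, shown here because it marks the members as 1 family and shows how far their sequences differ. Below are 27 bases of the longest annotated coding transcript of each gene (GENCODE M21, GRCm38), 5′ to 3′, with the codon of the catalytic cysteine in capitals.
Casp1: attattcaggcaTGCcgtggagagaaa
Casp4: attgtgcaggccTGCagaggtgggaac
Casp8: ttcattcaggctTGCcaaggaagtaac
Casp2: ttcatccaagcaTGTcgtggagatgag
Casp9: ttcatccaggccTGCggtggtgagcag
Casp6: atcatccaggccTGTcggggtagccag
The capitals lie at chr9:5303765-5303767 in exon 6 of Casp1, chr9:5324949-5324951 in exon 5 of Casp4, chr1:58844619-58844621 in exon 9 of Casp8, chr6:42276776-42276778 in exon 8 of Casp2, chr4:141807253-141807255 in exon 6 of Casp9 and chr3:129912121-129912123 in exon 6 of Casp6, all on the plus strand. Between 13 and 20 of the 27 bases were identical in a pair of genes, and 19 in Casp1 and Casp4. Casp1 and Casp4, which are neighbours in the genome, shared no stretch of 20 bases among the 1187 such stretches of the Casp1 coding sequence. No match of this kind was found in Apaf1, which is not a protease.

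Total counts ranged from 17239774 to 23993674 in thymic and from 25258341 to 32639570 in splenic libraries. Levels are given as CPM, counts relative to the library total, scaled by the TMM method, and a count of 3 was at most 0.174 CPM. Il2ra fell from 613 ± 73.1 CPM (SD, n = 5) in WT to 162 ± 88.0 (n = 5) in CD25 KO thymic Tregs and from 524 ± 23.9 (n = 4) to 186 ± 17.3 (n = 4) in the spleen, with no overlap of mice in either tissue (edgeR quasi-likelihood adjusted p = 0.00239 and 1.39e-09). Cre removes exon 4 of Il2ra only. The study reports that the remaining transcripts lacked this exon, which it illustrates for peripheral Tregs. The 5 Treg marker genes Foxp3, Il2ra, Ikzf2, Ctla4 and Tnfrsf18 had counts in every group, with summed levels of 2062 to 3213 CPM over all mice. Besides Il2ra, Foxp3 was called lower in thymus and spleen (log2 fold change −0.74 and −0.55, edgeR quasi-likelihood adjusted p = 0.00101 and 6.9e-06). By the same test, Tnfrsf18 was lower in the thymus only (−0.44, adjusted p = 0.00538). Ikzf2 was higher in the spleen only (0.37, adjusted p = 0.000859), and Ctla4 was called in neither tissue.

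Of the 7 genes, 4 changed in splenic CD25 KO Tregs and none in thymic CD25 KO Tregs. In the spleen, Casp1, Casp4 and Apaf1 rose and Casp8 fell, while Casp2, Casp6 and Casp9 did not pass the test. These 4 genes were also the ones for which no CD25 KO mouse lay in the WT range. Calls were made at FDR < 0.01 with the quasi-likelihood test of edgeR, adjusted over every gene tested. Of these genes, 9.45% were called in the spleen (5.9% higher and 3.55% lower), and the mice did not overlap for 20.4%. In the thymus the same test called 6.16% of genes (3.17% higher and 2.99% lower), with no overlap of mice for 16.4%. For the 0 of 7 members called there, 2 had an unadjusted p under 0.05 by edgeR (Casp1 and Casp4), and DESeq2 also called 0. The median log2 fold change of the 7 members was 0.121 in the spleen and −0.063 in the thymus, beside −0.006 and −0.002 over all genes tested. In sorted bulk samples, a change in the share of cells that express a gene and a change in RNA per cell cannot be told apart.

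**Figure D1:**
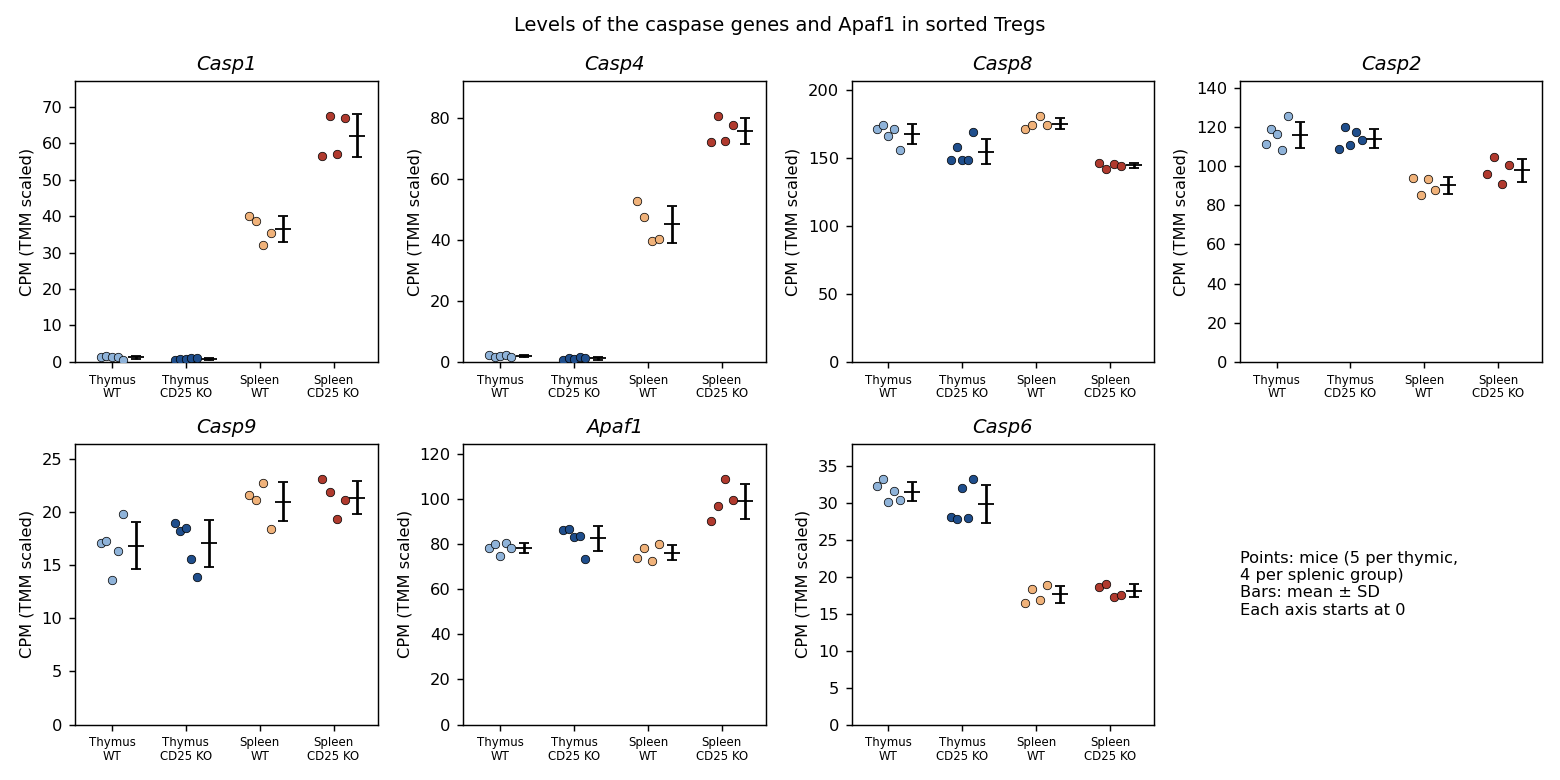
CPM (TMM scaled, y axes from 0) of each of the 7 genes in thymic WT, thymic CD25 KO, splenic WT and splenic CD25 KO Tregs, with 1 point per mouse and bars for mean ± SD. Casp1 and Casp4 were below 2.5 CPM in all 10 thymic mice, and the splenic CD25 KO mice lay apart from the splenic WT mice for Casp1, Casp4, Casp8 and Apaf1.

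Casp1 encodes the caspase that processes pro-IL-1β and pro-IL-18 downstream of inflammasomes. Its level in the 4 splenic WT mice was 40.1, 38.6, 31.9 and 35.3 CPM, and in the 4 splenic CD25 KO mice 56.6, 67.4, 57.1 and 67.0 CPM. Every CD25 KO mouse was above every WT mouse. The mean rose from 36.5 ± 3.64 to 62.0 ± 5.98 CPM (SD, n = 4 each), a 1.70-fold difference (log2 fold change 0.77 ± 0.0802 SE, edgeR quasi-likelihood adjusted p = 9.29e-06).

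In the thymus, Casp1 was counted in few reads. The 5 WT mice had 1.45, 1.70, 1.26, 1.37 and 0.597 CPM, and the 5 CD25 KO mice 0.50, 0.783, 0.707, 0.990 and 0.997 CPM, which corresponds to 10 to 40 reads a library. The CD25 KO mice lay within or below the range of the WT mice, and the groups overlapped. Casp1 was not called there, with a log2 fold change of −0.65 ± 0.287 (SE, edgeR quasi-likelihood adjusted p = 0.116).

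Casp4 encodes the caspase that senses cytosolic lipopolysaccharide. In the spleen it measured 52.8, 47.4, 39.7 and 40.5 CPM in WT mice and 72.0, 80.6, 72.5 and 77.8 CPM in CD25 KO mice. The groups did not overlap. The mean rose 1.68-fold, from 45.1 ± 6.18 to 75.7 ± 4.17 CPM (log2 fold change 0.75 ± 0.0810 SE, n = 4 each, edgeR quasi-likelihood adjusted p = 1.31e-05).

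In thymic Tregs, Casp4 was at 2.32, 1.57, 1.84, 2.24 and 1.45 CPM in WT and at 0.650, 1.43, 0.816, 1.53 and 1.42 CPM in CD25 KO mice. Of the CD25 KO mice, 4 were below every WT mouse and 1 was inside the WT range. The log2 fold change was −0.66 ± 0.257 (SE, edgeR quasi-likelihood adjusted p = 0.0807) and was not called. Across the 18 alternative settings tried in the thymus, the log2 fold change ranged from −1.03 to −0.50 for Casp4 and from −0.88 to −0.52 for Casp1, and neither gene was called in any of them.

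The change from WT to CD25 KO in Casp1 and Casp4 differed between the tissues when the difference itself was tested. Mouse model, age and library date changed with tissue, so this difference cannot be ascribed to tissue alone. The splenic log2 fold change exceeded the thymic one by 1.43 ± 0.265 (SE, edgeR quasi-likelihood adjusted p = 0.00114) for Casp1 and by 1.41 ± 0.237 (adjusted p = 0.000472, the same edgeR fit) for Casp4. These were 2 of 7 members called, beside 6.98% of all genes (4.5% higher and 2.49% lower). DESeq2 and the correction for GC content each called 3, with Apaf1 as the added gene. The median difference was 0.143 over the members and −0.007 over all genes tested.

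**Figure D2:**
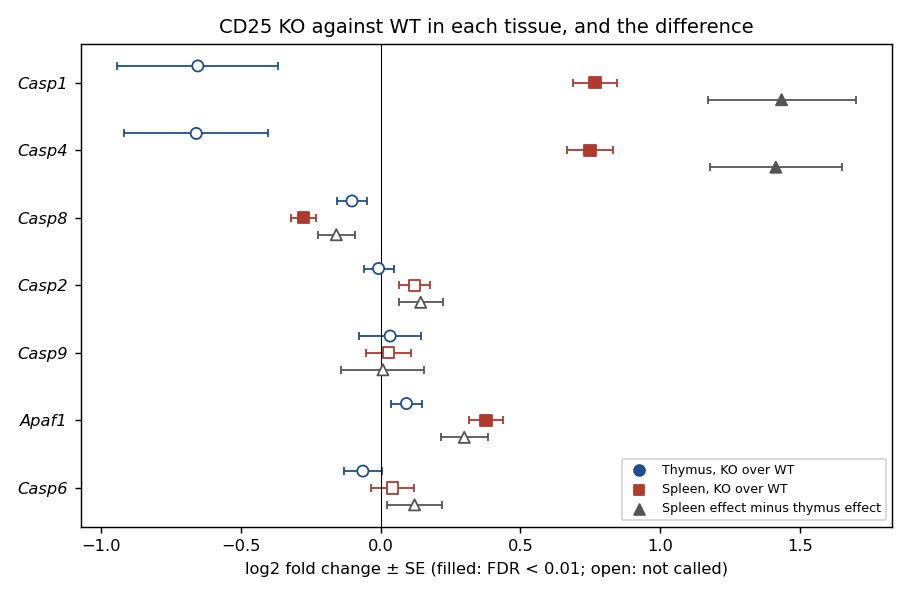
The log2 fold change of CD25 KO over WT (x axis, with bars for ± SE) of each gene in thymic and splenic Tregs, and the splenic minus the thymic change; filled symbols passed FDR < 0.01. Casp1 and Casp4 lie near 0.75 in the spleen and at −0.65 and −0.66 in the thymus.

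Casp1 and Casp4 lie in 1 cluster on chromosome 9 (GRCm38). Casp1 spans chr9:5298517-5307265 and Casp4 spans chr9:5308828-5336783, both on the plus strand, with 1562 bases between them. Within 100 kb on each side, the count table held only 1 further gene, Casp12 (chr9:5345430-5373032), named here for its position. Its highest group mean was 0.0693 CPM, below the level of 3 counts, while its neighbours were at 36.5 to 75.7 CPM in the spleen.

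The WT spleen level of Casp1 was 28.6 times and that of Casp4 23.9 times the WT thymus level, against 0.559 to 1.25 times for the other 5 members. Within a library the pair kept a similar ratio. The log2 ratio of Casp4 to Casp1 was 0.39, 0.30, 0.31 and 0.20 in splenic WT and 0.35, 0.26, 0.34 and 0.22 in splenic CD25 KO mice. Its mean differed by −0.0098 between genotypes (two-sided exact permutation p = 0.886, adjusted p = 0.886 over 8 ratio tests). In the thymus, where few reads were counted, the ratio ran from −0.11 to 1.17 in WT and from 0.19 to 0.80 in CD25 KO mice (difference −0.10, exact permutation p = 0.659).

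**Figure D3:**
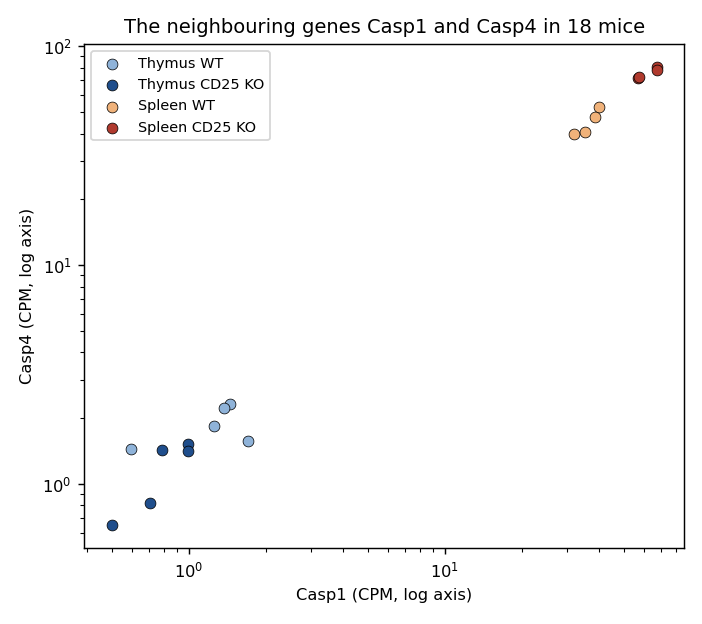
Casp1 (x axis, CPM) against Casp4 (y axis, CPM), both on log axes, with 1 point per mouse, coloured by group. The 18 mice fall into a thymic cluster near 1 CPM and a splenic cluster, in which the 4 CD25 KO mice lie above the 4 WT mice for both genes.

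Among 11895 protein-coding genes expressed in both tissues, the gene whose log2 CPM over the 18 samples was most like that of Casp1 was Casp4 (Pearson r = 0.996), followed by Abcb1a, which encodes a drug efflux pump (r = 0.994). For Casp4 they were Casp1 and Naip2, which encodes an inflammasome sensor of bacterial proteins (r = 0.995). These values describe points that differ mostly by tissue. Taken within a tissue, r of Casp1 and Casp4 was 0.791 over 10 thymic and 0.987 over 8 splenic samples, and the splenic points separate by genotype.

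The promoters of the 7 genes were read from RefSeq (GRCm38.p6, 250 bases before to 50 bases after each transcription start), and all 7 genes had an entry. They were searched on both strands for the letters GGGNNTTCC (NF-kB), TTCNNNGAA (STAT), GAAANNGAA (IRF), TGANTCA (AP-1) and TTTGGCGC, TTTCGCGC or TTTGGCGG (E2F), motifs chosen after the values were seen. Only Casp4 held a match, to 2 copies of the NF-kB letters, which occur in 5.82% of 32851 promoters. The other motifs occur in 8.3% (STAT), 8.56% (IRF), 7.81% (AP-1) and 1.35% (E2F) of promoters. For Casp8 the promoter read was chr1:58802252-58802551, inside the annotated gene, which begins at chr1:58795374. The Casp8 result holds for that start only. The stretch of the Casp4 promoter that holds both copies, chr9:5308742-5308833 on the plus strand, is shown with the copies in capitals, the second being the letters as read on the other strand.
Casp4: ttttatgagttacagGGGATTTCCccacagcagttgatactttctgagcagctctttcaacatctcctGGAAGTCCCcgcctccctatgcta
RefSeq lists 2 starts for Casp4, and the copies begin 92 and 39 bases before the first and 103 and 50 bases before the second. A match in letters is a description and not a bound site.

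The promoters also differed in CpG content. Casp1, Casp4 and Casp8 had 3, 5 and 5 CpG dinucleotides in 300 bases, below the median of 7 over all promoters. For Casp8 this is the start inside the annotated gene. Casp6, Casp2, Casp9 and Apaf1 had 16, 26, 28 and 46. Of the 3 genes with few CpGs, Casp1 and Casp4 rose and Casp8 fell in the spleen, and of the 4 with many, Apaf1 rose. Of all genes tested in the spleen 9.45% were called, and this share was not split by CpG count. With 7 genes no test was made, and no link to CpG count is drawn.

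Casp8 encodes the initiator caspase of the death receptor pathway, which also restrains necroptosis. In the spleen its level was 172, 174, 181 and 174 CPM in WT mice and 147, 142, 145 and 144 CPM in CD25 KO mice. All CD25 KO mice were below all WT mice, and the spread within each group was narrow. The mean fell by 0.28 on the log2 scale (± 0.0444 SE, edgeR quasi-likelihood adjusted p = 0.000457), from 175 ± 3.95 to 145 ± 1.85 CPM (n = 4 each), which is 1.21-fold lower.

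The thymic mice had 171, 175, 166, 172 and 156 CPM of Casp8 in WT and 149, 158, 149, 148 and 169 CPM in CD25 KO Tregs. The groups overlapped, since the lowest WT mouse lay below the 2 highest CD25 KO mice. The log2 fold change of −0.10 ± 0.0542 (SE) was not called (edgeR quasi-likelihood adjusted p = 0.188), and its difference from the splenic change was −0.16 ± 0.0671 (adjusted p = 0.108). A fall of Casp8 was thus called only in the spleen, but the tissues were not shown to differ.

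The annotation places another gene, Gm37760, on the same strand inside Casp8. How reads that overlap both genes were counted is not known. Gm37760 was at 31.6 ± 2.24 CPM in WT splenic Tregs and 23.1 ± 3.76 in CD25 KO splenic Tregs (SD, n = 4 each), the same direction as Casp8. Its part in the Casp8 result was not tested.

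Cflar encodes c-FLIP, a catalytically inactive relative of caspase-8 that binds it and limits its activation. Cflar was at 255 ± 4.71 CPM in WT splenic Tregs and 259 ± 5.31 in CD25 KO splenic Tregs and was not called (log2 fold change 0.02 ± 0.0445 SE, edgeR quasi-likelihood adjusted p = 0.771). The log2 ratio of Cflar to Casp8 was 0.57, 0.52, 0.53 and 0.55 in splenic WT and 0.78, 0.87, 0.85 and 0.87 in splenic CD25 KO mice. The groups did not overlap, and the ratio was higher in CD25 KO mice by 0.30. With 4 against 4 mice, the exact permutation p of 0.0286 is the smallest possible, and it was 0.127 after adjustment over the 8 ratio tests. Among thymic mice, WT had a ratio of 0.69 ± 0.0784 and CD25 KO one of 0.78 ± 0.0533 (SD, n = 5 each, exact permutation p = 0.0635, adjusted p = 0.127), and the groups overlapped.

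Apaf1 forms the apoptosome with cytochrome c. Its level in splenic Tregs was 73.9, 78.1, 72.6 and 80.0 CPM in WT and 90.0, 97.0, 109 and 99.4 CPM in CD25 KO mice. Every CD25 KO mouse was above every WT mouse. The mean rose 1.30-fold, from 76.1 ± 3.46 to 98.8 ± 7.78 CPM (log2 fold change 0.38 ± 0.0601 SE, n = 4 each, edgeR quasi-likelihood adjusted p = 0.000418).

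In the thymus, Apaf1 was at 78.2, 79.8, 74.6, 80.6 and 78.2 CPM in WT and at 86.2, 86.8, 83.2, 83.4 and 73.2 CPM in CD25 KO mice. In 4 CD25 KO mice the level was above every WT mouse and in 1 it was below every WT mouse. Apaf1 was not called in the thymus (log2 fold change 0.09 ± 0.0549 SE, edgeR quasi-likelihood adjusted p = 0.238). The splenic change exceeded it by 0.30 ± 0.0834 (adjusted p = 0.0187), which missed FDR < 0.01 but passed it under DESeq2 (adjusted p = 0.0050) and after correction for GC content (adjusted p = 0.00883).

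Casp9, the initiator that Apaf1 recruits, stayed within the spread between mice in both tissues. It was at 21.6, 21.2, 22.7 and 18.4 CPM in splenic WT and at 23.1, 21.8, 19.3 and 21.1 CPM in splenic CD25 KO mice, ranges that overlap throughout. The log2 fold change was 0.03 ± 0.0814 in the spleen (SE, edgeR quasi-likelihood adjusted p = 0.856) and 0.03 ± 0.112 in the thymus (adjusted p = 0.849), where the means were 16.8 and 17.04 CPM. Casp9 overlaps Cela2a and Ctrc on the opposite strand, both at no more than 0.135 CPM in any library.

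For Apaf1 to Casp9 the log2 ratio was 1.77, 1.88, 1.67 and 2.11 in splenic WT and 1.96, 2.15, 2.49 and 2.23 in splenic CD25 KO mice. The groups overlapped by 1 WT mouse, and the difference of 0.35 had an exact permutation p of 0.0571 (adjusted p = 0.127). In the thymus the ratio differed by 0.06 (exact permutation p = 0.587). Xiap encodes an inhibitor that binds active caspase-9. The log2 ratio of Xiap to Casp9 was higher in CD25 KO mice by 0.45 for thymic samples (exact permutation p = 0.0317, adjusted p = 0.127, n = 5 each) and by 0.22 for splenic ones (exact permutation p = 0.200, n = 4 each), with overlapping groups in both.

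**Figure D4:**
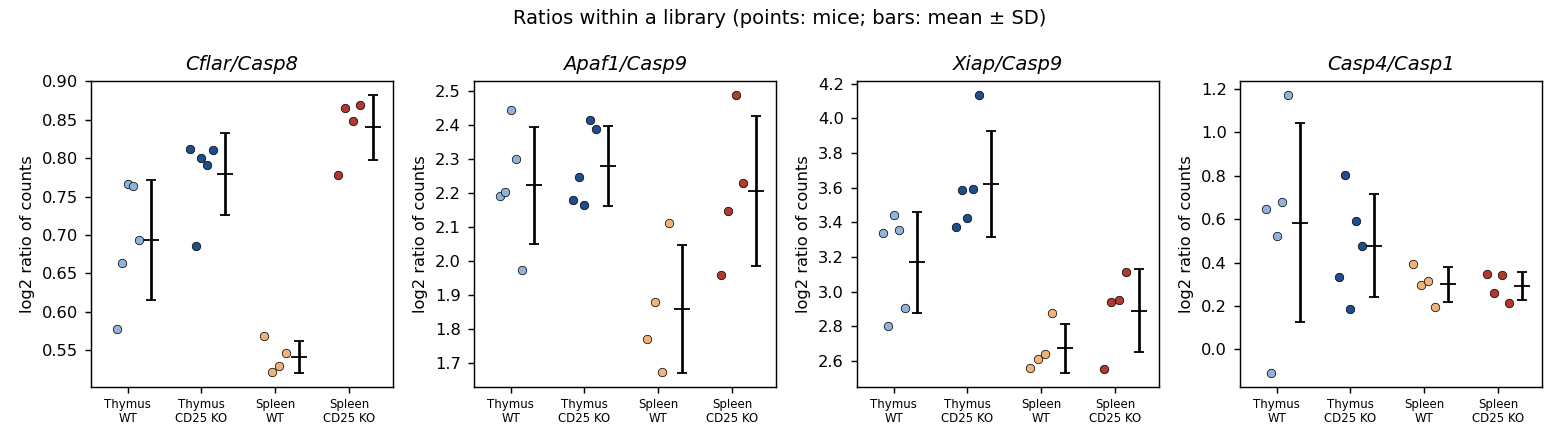
The log2 ratio of counts of 2 genes within a library (y axes, which do not start at 0) in the 4 groups, with 1 point per mouse and bars for mean ± SD. The splenic groups are apart for Cflar to Casp8, at 0.52 to 0.57 in WT and 0.78 to 0.87 in CD25 KO mice, and no ratio passed after adjustment over the 8 tests.

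Casp2, the caspase of the PIDDosome, was at 93.9, 85.2, 93.5 and 87.7 CPM in splenic WT and 95.7, 104, 90.6 and 101 CPM in splenic CD25 KO mice. The groups overlapped by 1 CD25 KO mouse. The log2 fold change of 0.12 ± 0.0567 (SE) was not called (edgeR quasi-likelihood adjusted p = 0.165), and in the thymus, with means of 116 and 114 CPM, it was −0.0073 ± 0.0538 (adjusted p = 0.936). Casp6, the executioner among the members, had means of 17.6 and 18.1 CPM in splenic and 31.5 and 29.8 CPM in thymic WT and CD25 KO Tregs. Its log2 fold change was 0.04 ± 0.0770 in the spleen (edgeR quasi-likelihood adjusted p = 0.761) and −0.06 ± 0.0677 in the thymus (adjusted p = 0.52). The difference between tissues was not called for Casp2 (0.14 ± 0.0780), Casp6 (0.12 ± 0.0997) or Casp9 (0.0083 ± 0.148).

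Levels of different genes were compared as CPM per kb of annotated exons. Casp8 was the most abundant member in all 4 groups, with 58.0 ± 2.54 CPM per kb in thymic WT and 60.6 ± 1.36 in splenic WT Tregs. In thymic WT Tregs it was followed by Casp2 (16.4 ± 0.958), Apaf1 (8.67 ± 0.255), Casp6 (5.64 ± 0.235) and Casp9 (3.24 ± 0.428), with Casp1 (0.852 ± 0.275) and Casp4 (0.508 ± 0.105) at the end. Neighbours in this order lay further apart than either SD, although mean ± SD of Casp1 and Casp4 overlapped. In splenic WT Tregs Casp1 was the second member, with 24.4 ± 2.43 CPM per kb, and Casp2 (12.8 ± 0.613) and Casp4 (12.2 ± 1.66) did not differ beyond their spread. Apaf1 (8.43 ± 0.383), Casp9 (4.04 ± 0.349) and Casp6 (3.15 ± 0.216) came last. In splenic CD25 KO Tregs Casp8 (50.0 ± 0.639) was followed by Casp1 (41.4 ± 3.99), and Casp4 (20.4 ± 1.12) stood above Casp2 (13.9 ± 0.848).

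**Figure D5:**
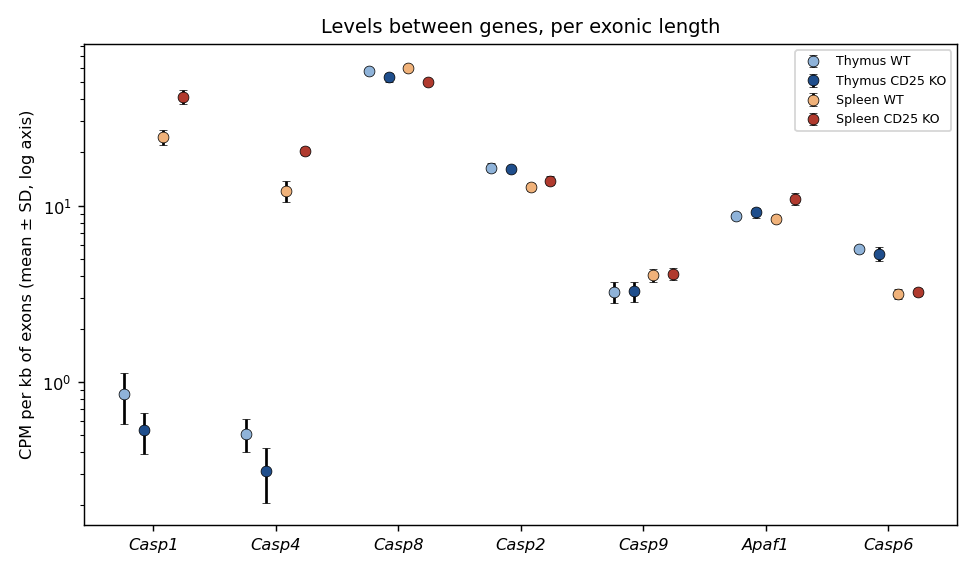
CPM per kb of exons (y axis, log scale) of the 7 genes in the 4 groups, as mean ± SD. Casp8 lies at 50.0 to 60.6 in every group, and thymic Casp1 and Casp4 lie below 1, against 12.2 to 41.4 for splenic samples.

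Of the other members, the genes most alike over the 18 samples were Snrpe (r = 0.956) and Ccnt1 (0.949) for Casp2, Git2 (0.984) and Cdc23 (0.983) for Casp6, Slc29a2 (0.854) and Lta (0.838) for Casp8, Apbb1 (0.915) and Asb1 (0.905) for Casp9, and Kdm2b (0.874) and Smim3 (0.873) for Apaf1. As above, the points share tissue and library date, and r is a description.

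The partners of these proteases were described from 7 lists of genes drawn up by pathway. Counts called in them stand beside 6.16% of all genes tested in the thymus, 9.45% in the spleen and 6.98% for the difference. No test of a list as a set was made. Among 11 genes of the apoptosome and its inhibitors, 1 rose and 1 fell in each tissue, and 0 were called for the difference between tissues (4 had an unadjusted p under 0.05 by edgeR, and DESeq2 called 2). Aven, which binds Apaf1 and inhibits apoptosis, fell by 0.68 on the log2 scale in the thymus (edgeR quasi-likelihood adjusted p = 0.00534) and by 0.40 in the spleen (adjusted p = 0.000467). Aven was at 40.3 ± 2.54 CPM in WT splenic Tregs and 30.4 ± 1.77 in CD25 KO splenic Tregs. Apaf1 was called higher in the spleen and was not called in the thymus, and a link with Aven was not tested. Birc5, which encodes survivin and is tied to cell division, rose by 0.84 in the spleen (adjusted p = 0.00488). Xiap rose by 0.48 in the thymus (adjusted p = 0.00872), and this call was lost after correction for GC content (log2 fold change 0.08, adjusted p = 0.179).

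Among 13 genes of the death receptor complex, 2 fell in the thymus and 2 rose in the spleen. Of all genes tested, 2.99% fell in the thymus and 5.9% rose in the spleen. Ripk1, the kinase that joins this complex with caspase-8, fell from 51.3 ± 3.99 to 36.3 ± 2.62 CPM in the thymus (log2 fold change −0.48, edgeR quasi-likelihood adjusted p = 0.00157) and was at 64.3 ± 5.14 and 61.6 ± 5.92 CPM in splenic WT and CD25 KO Tregs. It was the 1 gene of this list called for the difference between tissues (0.44, adjusted p = 0.0097). The death receptor gene Tnfrsf10b fell by 0.51 in the thymus (adjusted p = 0.00807). Mlkl, which encodes the effector of necroptosis that caspase-8 activity holds back, rose by 0.66 in the spleen (adjusted p = 0.00621) from a low level of 2.41 ± 0.289 to 3.82 ± 0.264 CPM. Casp8ap2, a caspase-8 binding partner, rose by 0.28 there (adjusted p = 0.00948).

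The inflammasome list, the partners of Casp1 and Casp4, had 12 genes, of which 5 passed the low-count filter in the thymus, and 9 did so for the splenic comparison and for the difference. The edgeR test called 0 of them in each comparison, with an unadjusted p under 0.05 for 1, 5 and 3 genes, and DESeq2 called 1 in each. Genes chosen from this list after their values were seen show which parts were expressed. The adaptor Pycard was at 52.2 ± 2.11 CPM in WT splenic Tregs and 58.5 ± 4.71 in CD25 KO splenic Tregs. The gasdermin D gene Gsdmd was at 63.8 ± 2.81 and 61.9 ± 3.75 CPM, and the DNA sensor Aim2 at 52.2 ± 3.47 and 56.5 ± 2.83 CPM. The sensor Nlrp3 and the cytokine gene Il1b did not exceed 0.155 and 0.171 CPM in any splenic library. All 5 genes with an unadjusted p under 0.05 in the spleen were higher in CD25 KO mice, though none passed the adjustment. They were picked by these p-values, and the share of all genes under 0.05 was not counted. Of the other genes tested there, Il1a and Gsdmd were lower (log2 fold change −0.38 and −0.04). Nlrc4 and Aim2 were higher (0.19 and 0.12), and none of these was called. The sensor Nlrp1a was at 1.10 ± 0.453 and 2.22 ± 0.460 CPM without overlap of mice (log2 fold change 1.02, edgeR quasi-likelihood adjusted p = 0.0173). The related sensor Nlrp1b was at 24.6 ± 2.58 and 29.3 ± 1.32 CPM (adjusted p = 0.0309). Nek7, which encodes a kinase that activates NLRP3, was at 160 ± 1.63 and 182 ± 18.6 CPM, again without overlap (adjusted p = 0.0467). Il18, which encodes a cytokine precursor cut by caspase-1, was at 0.779 ± 0.357 and 1.40 ± 0.426 CPM (adjusted p = 0.0755), and Pycard was the fifth (adjusted p = 0.0846). The median log2 fold change of the 9 genes tested in the spleen was 0.187, beside −0.006 over all genes tested there. Of all those genes, 20.4% had no overlap of mice.

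Of 4 genes of the PIDDosome and p53, only Trp53 was called, which fell by 0.30 in the thymus (edgeR quasi-likelihood adjusted p = 0.00635). In the spleen and for the difference, 0 were called (unadjusted p under 0.05 by edgeR for 1 and 0 genes, and DESeq2 called 0 in both). Among 16 genes of caspase substrates, 1 rose and 0 fell in the thymus, and 2 rose and 0 fell in the spleen. Of all genes tested, 3.17% rose in the thymus and 5.9% in the spleen. Gsn, which encodes the actin-severing gelsolin, rose there by 0.64 (adjusted p = 7.15e-05) and Lmnb1, a nuclear lamin, by 0.57 (adjusted p = 6.9e-06). Gsn was also called for the difference between tissues (1.20, adjusted p = 0.00138).

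Of 9 transcription factors reported to act on caspase or Apaf1 genes, 8 were tested. In the thymus 2 of them rose and 1 fell, beside 3.17% and 2.99% of all genes tested. Irf1 rose by 0.34 in the thymus (edgeR quasi-likelihood adjusted p = 0.00811), where no member was called, beside the fall of Trp53. In the spleen 0 of the 8 were called (3 with an unadjusted p under 0.05 by edgeR, and DESeq2 called 2), and for the difference 0 were called (2 with an unadjusted p under 0.05, and DESeq2 called 0).

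Several calls of the pathway lists were lost in many of the alternatives. Xiap, Irf1 and Trp53 were each lost in 10 of 18, Aven in 9 of 18 and Tnfrsf10b in 14 of 18 thymic alternatives. In the spleen, Casp8ap2 was lost in 8 of 14, and Birc5 and Mlkl in 7 of 14. The call of Ripk1 was kept in all 18 thymic alternatives, but its difference between tissues was lost in 15 of 23. Most of these losses came from leaving out 1 mouse, where the log2 fold changes kept their direction and much of their size. They ranged from −0.54 to −0.46 for Tnfrsf10b, −0.79 to −0.61 for Aven, 0.29 to 0.38 for Irf1, −0.34 to −0.27 for Trp53 and 0.41 to 0.54 for Xiap in the thymus. In the spleen they ranged from 0.24 to 0.33 for Casp8ap2, 0.68 to 0.98 for Birc5 and 0.60 to 0.72 for Mlkl. Besides Xiap, correction for GC content lost the thymic calls of Trp53 (log2 fold change −0.21, edgeR quasi-likelihood adjusted p = 0.0188) and Tnfrsf10b (−0.48, adjusted p = 0.0108). It also lost the splenic call of Casp8ap2 (0.23, adjusted p = 0.0167). The splenic calls of Casp1, Casp4, Casp8 and Apaf1 were kept in all 14 alternatives.

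Genes of the central and effector Treg state were called in different directions in the tissues. Of the 10 genes, 5 fell and 0 rose in the thymus, whereas 7 rose and 3 fell in the spleen, and for the difference 5 were called higher and 1 lower. This list follows a pattern that earlier results of these data had shown and is no independent support. Tigit, an inhibitory receptor of effector Tregs, fell in the thymus from 7.54 ± 1.47 to 1.23 ± 0.418 CPM and rose from 73.6 ± 11.8 to 178 ± 21.4 CPM in the spleen. Prdm1, which encodes the effector regulator Blimp-1, fell from 5.39 ± 1.35 to 2.59 ± 0.387 CPM and rose from 37.8 ± 5.09 to 75.7 ± 2.72 CPM. Klrg1, a receptor of terminally differentiated cells, was at 2.13 ± 1.24 CPM in thymic WT and at most 0.0461 CPM in thymic CD25 KO mice, and rose from 18.6 ± 1.47 to 31.6 ± 1.90 CPM in the spleen. Central-state genes fell in the spleen, Ly6c1 by 1.30 and Ccr7 by 0.60 on the log2 scale (edgeR quasi-likelihood adjusted p = 0.000142 and 3.49e-05). The dividing-cell marker Mki67 rose by 1.01 in the spleen (adjusted p = 9.17e-07). Their part in the results for Casp1 and Casp4 was not tested.

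Myeloid cells are rich in Casp1 and Casp4, so markers of other cells are given beside them. The summed level of 6 monocyte and macrophage markers was 16.5 to 23.3 CPM in WT splenic Tregs and 21.7 to 28.7 CPM in CD25 KO splenic Tregs, and in the thymus 9.65 to 28.1 and 7.05 to 21.0 CPM. Of its genes, Lyz2 rose in the spleen from 6.17 ± 2.34 to 12.6 ± 1.69 CPM with no overlap of mice (SD, n = 4 each, edgeR quasi-likelihood adjusted p = 0.00132), the same direction as Casp1 and Casp4. Csf1r was at 6.45 ± 1.43 and 5.48 ± 1.32 CPM, Adgre1 at 1.47 ± 0.725 and 0.843 ± 0.368 CPM and Cd68 at 5.77 ± 0.367 and 6.01 ± 0.800 CPM in splenic WT and CD25 KO Tregs, and none of them was called. Cd14 and Itgam were below 1 CPM in all splenic libraries. The 5 dendritic cell markers summed to 26.0 to 27.9 CPM in WT splenic Tregs and 26.5 to 33.7 CPM in CD25 KO splenic Tregs, and in the thymus to 23.9 to 41.0 and 14.1 to 56.0 CPM. The 3 NK cell markers did not overlap in the spleen, at 0.366 to 2.67 CPM in WT and 3.03 to 5.77 CPM in CD25 KO mice, with 2 of the 3 at 0 in every splenic CD25 KO mouse. The remaining marker, Klrb1c, was called higher in splenic CD25 KO Tregs (log2 fold change 1.90, edgeR quasi-likelihood adjusted p = 0.0029), the same direction as Casp1 and Casp4. The 3 neutrophil markers did not exceed 0.118 CPM in sum in the spleen. The 4 B cell markers summed to 18.5 to 20.6 CPM in splenic WT and 16.5 to 20.6 CPM in splenic CD25 KO mice. For the 2 CD8 T cell markers these sums were 7.80 to 9.45 and 8.33 to 10.8 CPM. Without overlap of mice, Cd79a was lower (log2 fold change −0.45) and Cd8a higher (0.59) in splenic CD25 KO Tregs. Neither was called, and 20.4% of all genes tested there had no overlap. The part of other cells in these results was not tested.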

How the data were processed

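RNA-seq was made from sorted Tregs of 18 mice with a ribosomal RNA-depleted total RNA kit. The authors aligned reads to GRCm38 with STAR 2.5.0b, counted them per GENCODE M13 gene with featureCounts 1.5.0 and deposited raw counts, whole reads without normalization. The strand setting is not given in the sources used here, so overlapping genes on opposite strands may share reads. Thymic libraries held 17239774 to 23993674 counts and splenic libraries 25258341 to 32639570, and errors cover the spread between mice. Groups were taken from the sample labels, and no column was left out (0 columns not used). Symbols, positions and exonic lengths came from GENCODE M21, which matched 50376 of 50600 identifiers.

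In R 4.3.3, genes were filtered by filterByExpr, scaled by TMM and tested in each tissue by edgeR 4.0.16 (quasi-likelihood, Benjamini-Hochberg over all genes, FDR < 0.01). The difference between tissues was tested in 1 fit of all 18 samples. Standard errors came from the fold change and the F statistic. The study names DESeq2 for this step, and DESeq2 1.42.0 was an alternative, as were DESeq2's size factors, no low-count filter, 1 fit of all samples, FDR < 0.05, GC correction by a lowess trend (span 0.3), the mouse number as a block, and leaving out each mouse. Log2 ratios used a prior count of 2 (alternative 0.5) and two-sided exact permutation tests adjusted over 8. The model fits were tested on simulated data.

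The members, lists and tests were chosen with earlier results of these data known. Named genes are the 7 members, Il2ra, the ratio partners, up to 3 called genes per direction of each list and comparison with the largest change, and the 2 genes most like each member by Pearson r. Other caspases and some genes of the lists are not reported here.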

Additional observations from a re-analysis of the deposited data

Results flagged for a closer look

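The change from WT to CD25 KO differed between spleen and thymus for Casp1 and Casp4, where mouse model, age and library date differed too. The splenic minus the thymic log2 fold change was 1.43 for Casp1 (edgeR quasi-likelihood adjusted p = 0.00114) and 1.41 for Casp4 (adjusted p = 0.000472), with all 4 splenic CD25 KO mice above all splenic WT mice and the thymic groups overlapping.

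In 3 of 44 groups of mice checked, 1 mouse stood far from the others of its group, and chance gives about 1 in 20. Apaf1 was at 73.2 CPM in 1 thymic CD25 KO mouse and at 83.2 to 86.8 CPM in the other 4. The log2 ratio of Cflar to Casp8 was 0.69 in 1 thymic CD25 KO mouse and 0.79 to 0.81 in the others. The log2 ratio of Xiap to Casp9 was 4.14 in 1 thymic CD25 KO mouse and 3.37 to 3.59 in the others. The mouse with the low Apaf1 level and the one with the high Xiap ratio were the same library, CD25 KO replicate 5. Without it, the thymic log2 fold change of Apaf1 was 0.13 (edgeR quasi-likelihood adjusted p = 0.0597) and was not called.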

How the results depend on the processing

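Members called numbered 0 for thymic and 4 for splenic samples under every alternative run, and 2 for the difference between tissues under every alternative but 3, in which Apaf1 was added: DESeq2 (log2 difference 0.31), GC correction (0.35) and FDR < 0.05 (0.30). Values near 0 turned sign. With 1 mouse left out, the log2 fold change ranged from −0.030 to 0.026 for Casp2 in the thymus, from −0.032 to 0.10 for Casp9 in the thymus, from −0.029 to 0.074 for Casp9 in the spleen and from −0.066 to 0.069 for the Casp9 difference, which was −0.025 under GC correction. The genotype difference of the log2 ratio ranged from −0.0065 to 0.11 for Apaf1 to Casp9 in the thymus, and for Casp4 to Casp1 from −0.28 to 0.043 in the thymus and from −0.044 to 0.021 in the spleen. None of these was called in any of them. Over all genes, DESeq2 called 2763 in the thymus and 2188 for the difference, against 1047 and 1305 by edgeR, and the cause was not tested. Log2 fold changes correlated with gene GC content across genes (Spearman rho −0.40 in the thymus and −0.17 in the spleen, genes not being independent). The thymic mouse numbers did not pair the mice: deviations of same-numbered mice correlated at −0.24 to 0.14. Of 5 WT mice, 1 was most like the CD25 KO mouse of its own number. With the number as a replicate block, 0 members were called, with log2 fold changes of −0.63 for Casp1 and −0.68 for Casp4 in the thymus. The splenic labels share no numbers. In the thymus, 10 to 49 reads of Casp1 and Casp4 per library limit what can be detected.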
